A study of Homo sapiens with 6 samples.

Results

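The genes described here make cholesterol and fatty acids or control that synthesis, and they were taken as a list of 35 named genes. A member was counted as measured where a probe set of the array named that gene alone, which held for 32 of the 35, out of 12165 genes measured in all. No such probe set was found for FDFT1, ACSS2 or HSD17B7. The measured members were 16 enzymes of the sterol branch, 11 genes of the fatty acid branch and 5 regulators. The cells were LNCaP, an androgen-responsive human prostate cancer line, grown in RPMI with fetal bovine serum. Cultures were exposed for 6 h to 20 µM gedunin, a limonoid natural product of the neem family of trees (3 arrays), or for 6 h to DMSO, its solvent (3 arrays). Total RNA was hybridised to Affymetrix expression arrays, and the labels number the arrays of each group as biological replicates. Since all arrays come from a single cell line, the values describe that line alone.

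Cholesterol is built from acetyl-CoA through mevalonate, isoprenoid diphosphates, squalene and lanosterol, while fatty acids are built from acetyl-CoA through malonyl-CoA and are then elongated and desaturated. Both branches are switched on by SREBP transcription factors, which SCAP escorts out of the endoplasmic reticulum when its membrane sterol is low and which INSIG proteins hold back when sterol is plentiful. SREBF2 mainly serves the sterol branch and SREBF1 the fatty acid branch. Prostate cancer cells such as LNCaP are known for strong lipid synthesis that androgen raises further.

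Luminal markers were nearly missing from the array labelled DMSO 3, which is therefore shown apart, and gedunin (3 arrays) was compared with DMSO 1 and 2. Of 8 prostate luminal markers, 6 lay at least 8-fold lower on DMSO 3 than on DMSO 1 and 2, KLK3 among them with an intensity of 24.5 against 2093 and 1810. Of 8 leukocyte markers, 7 lay at least 8-fold higher, and the summed intensity of the 8 was 27917 there against 875 and 900 on DMSO 1 and 2. On the gedunin arrays the luminal markers summed to 13639 to 14283 and the leukocyte markers to 704 to 794. Spearman's correlation over probe sets, given as a description, was 0.812 to 0.819 for DMSO 3 with the other arrays and 0.976 to 0.980 between arrays of a group among the other 5. Medians of intensity lay between 31.1 and 32.0 on the 6 arrays. The normalization sets the arrays to a like overall distribution, so a change shared by most genes would not be seen, and less RNA per cell cannot be told apart from fewer cells.

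Few genes of either branch differed between gedunin-treated and control cells at 6 h. Of the 32 measured members, SC5D and ACSL1 rose, NSDHL and ELOVL6 fell, and 28 did not pass an adjusted p of 0.05. All of these differences were under 2-fold. The test was limma's moderated test over all 22215 probe sets, adjusted by Benjamini-Hochberg. Of all 12165 genes, 17.6% were called, 8.24% higher and 9.36% lower, against 12.5% of the members, 6.25% in each direction. A single gene moves the share of the members by several percent, and nothing particular to the members is read from the gap. At an unadjusted p of 0.05, 9 members passed. The median log2 fold change of the members, gedunin over DMSO, was -0.05, against -0.02 over all genes. The median size of the change, whatever its sign, was 0.13 for members and 0.14 for all genes.

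For 27 of the 28 members not called, the 95% interval of the log2 fold change lay within a 1.5-fold change in either direction, by the brightest probe set of each gene. The exception was CYP51A1, the lanosterol demethylase, with an interval from -0.66 to 0.09. Intervals of the dimmer probe sets of HMGCS1 (-0.99 to 0.49) and CYP51A1 (-0.04 to 0.70) also reached beyond 1.5-fold. These intervals cover the spread between the 5 arrays only. The plot of fold changes by branch shows the called members at both ends of their branches.

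**Figure D1:**
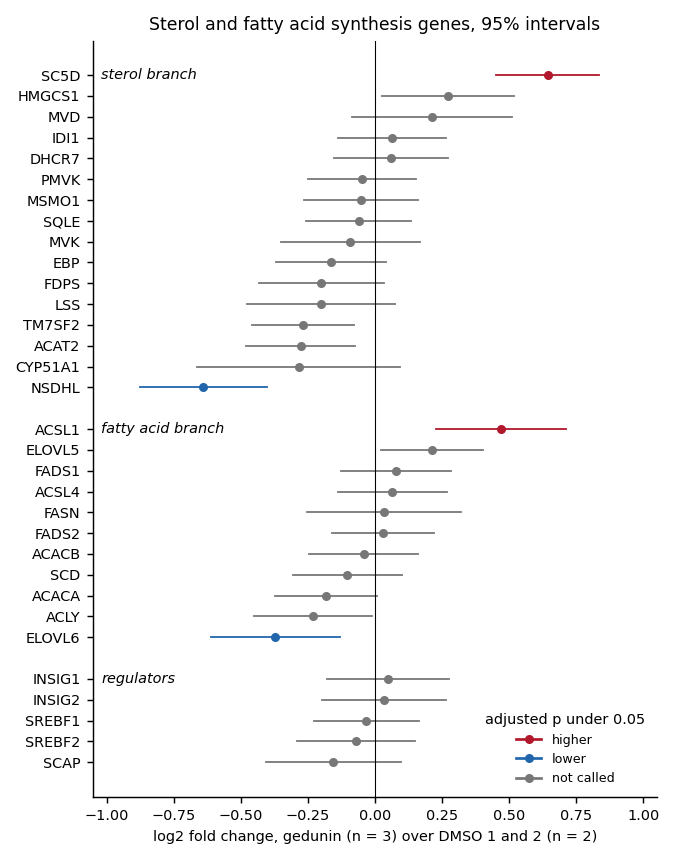
Log2 fold change of each measured member, gedunin (3 arrays) over DMSO 1 and 2 (2 arrays), with lines spanning the 95% interval and genes sorted within each branch. SC5D (0.64) and ACSL1 (0.47) stand at the top of their branches, NSDHL (-0.64) and ELOVL6 (-0.37) at the bottom, and the regulators lie between -0.16 and 0.05.

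In the early, mevalonate part of the sterol branch no member was called. HMGCS1, the synthase that makes HMG-CoA, read 161, 130.03 and 156 on the gedunin arrays and 119 and 127 on DMSO 1 and 2. All 3 gedunin arrays lay above both DMSO arrays, but the log2 difference of 0.27 ± 0.11 (moderated SE) did not pass (adjusted p = 0.144). A second, dimmer probe set of HMGCS1 read 80.3, 45.4 and 27.6 with gedunin against 54.2 and 56.4 with DMSO, so the gedunin arrays lay on both sides of the controls (-0.25 ± 0.33, adjusted p = 0.70). The 2 probe sets of HMGCS1 thus differed in sign and in their spread among gedunin arrays.

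ACAT2, the thiolase that joins acetyl-CoA units at the entry of the pathway, read 150.4, 145 and 136 with gedunin against 179 and 169 with DMSO. Its groups did not overlap, although the difference of -0.28 ± 0.09 missed the threshold (adjusted p = 0.0723). The mevalonate kinases MVK and PMVK, the decarboxylase MVD and the isomerase IDI1 act next, and FDPS joins their products to farnesyl diphosphate. On the brightest probe set of each, log2 differences ranged from -0.20 for FDPS to 0.21 for MVD, and gedunin and DMSO arrays overlapped for each of the 5. A dimmer probe set of IDI1 read 377, 350 and 319 with gedunin against 293 and 302 with DMSO. Its groups were apart, but it was not called (0.22, adjusted p = 0.173). A dimmer probe set of MVK also had groups apart, uncalled (0.10, adjusted p = 0.519), while the remaining one overlapped (-0.06). MVD was dim, at 25.7 to 36.4 with gedunin and 26.0 to 26.5 with DMSO, and its mean over these arrays lay below the array median.

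Squalene epoxidase and lanosterol synthase, encoded by SQLE and LSS, carry out the steps from squalene to lanosterol. SQLE read 171, 165 and 179 on the gedunin arrays and 183 and 175 on the DMSO arrays, a log2 difference of -0.06 with a 95% interval from -0.26 to 0.14. LSS read 141, 188 and 166 against 181 and 196 (-0.20 ± 0.12, adjusted p = 0.346). Neither gene had groups apart, and the other probe sets of SQLE had differences of 0.06 and 0.01.

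The late steps from lanosterol to cholesterol held both called members of the sterol branch, with opposite signs. NSDHL, a dehydrogenase of the complex that strips methyl groups from sterol intermediates, read 76.6, 68.3 and 61.6 with gedunin against 105 and 108 with DMSO. Every gedunin array lay below both DMSO arrays. NSDHL averaged 68.8 ± 7.51 (SD, n = 3) with gedunin and 107 ± 2.13 (SD, n = 2) with DMSO, and fell by 0.64 ± 0.11 on the log2 scale, to 0.642 of the DMSO level (adjusted p = 0.00267). Its other probe set read 23.7 to 27.5 with gedunin and 25.4 to 31.0 with DMSO, below the array median, and was not called (-0.14, adjusted p = 0.493).

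SC5D, the desaturase that adds a ring double bond shortly before the end of the pathway, read 951, 905 and 961 with gedunin against 596 and 606 with DMSO. The gedunin arrays stood clear above the controls. SC5D averaged 939 ± 29.7 (SD, n = 3) with gedunin and 601 ± 7.58 (SD, n = 2) with DMSO, and rose by 0.64 ± 0.09, or 1.56-fold (adjusted p = 7.30e-04). This was the largest rise among the 32 members. Here too the call rested on a single probe set, since the other read 22.8 to 29.1 with gedunin and 24.5 to 30.1 with DMSO, below the array median, with a difference of -0.13 (adjusted p = 0.613). The mean of both SC5D probe sets was not called (0.26, adjusted p = 0.0596).

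The neighbours of these enzymes were not called. TM7SF2, a sterol reductase that acts after the lanosterol demethylase, read 1425, 1442 and 1372 with gedunin against 1704 and 1699 with DMSO. Its groups were apart and close within themselves, and the difference of -0.27 ± 0.08 fell just short (adjusted p = 0.0624). MSMO1, the methyl sterol oxidase that works beside NSDHL, had 374, 326 and 334 with gedunin and 348 and 366 with DMSO, an overlap (-0.05 ± 0.09). EBP, the sterol isomerase before SC5D, had a difference of -0.16 ± 0.09, and DHCR7, a reductase of the last step, 0.06 ± 0.09, neither called. The other probe sets of EBP had -0.11 (adjusted p = 0.533) and -0.30 (adjusted p = 0.0979). On all 3 probe sets of EBP every gedunin array lay below both controls. The other probe set of DHCR7 had the opposite sign, with overlapping groups (-0.12, adjusted p = 0.480). CYP51A1, the demethylase, gave opposite signs on its 2 probe sets, neither called. The brighter one had -0.28 ± 0.17 (adjusted p = 0.329), reading 546, 524 and 352 with gedunin against 547 and 588 with DMSO, and the other had 0.33 ± 0.17 (adjusted p = 0.239), reading 103, 81.6 and 132 against 81.1 and 83.4. On both of them gedunin 3 stood farthest from the controls.

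Promoters were read to see whether genes of a branch share control elements that the choice of members did not use. RefSeq windows on GRCh38.p14, from 250 bases before to 50 after the start of transcription, were held for 29 of the 32 measured members and are not shown for ACAT2, SQLE and FASN. The NF-Y box, CCAAT on either strand, was present in 11 of 14 sterol branch promoters, 3 of 10 fatty acid branch promoters and 2 of 5 regulator promoters, and in 35.7% of all 27305 promoters of that length. The GC box, GGGCGG on either strand, was present in 13, 7 and 5 of them in the same order, and in 44.6% of all promoters. NF-Y and Sp1, the factors known to bind these boxes, are known partners of SREBP proteins. The E box CACGTG was found in 5 of the 29 and in 7.43% of all. The sterol regulatory element, searched as TCACNCCAC on either strand, was found in 1 of the 29, SREBF2 itself, and in 1.15% of all promoters. The C/EBP-ATF element TGATGNAA was found in 0 of the 29 and in 3.67% of all. These matches are a description of letters in a window, not of binding. Only these exact strings were counted, so a differing form of an element would be missed.

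The 160 bases before the start are shown, 5′ to 3′ on the gene's strand, for the called sterol members NSDHL and SC5D, for HMGCS1 and MSMO1 as uncalled genes of the same branch, for SREBF2 with its sterol regulatory element, and for the called fatty acid genes ELOVL6 and ACSL1. Capitals mark each complete NF-Y box, GC box, E box or sterol regulatory element within the stretch.
NSDHL, chrX:152830903-152831062, plus strand: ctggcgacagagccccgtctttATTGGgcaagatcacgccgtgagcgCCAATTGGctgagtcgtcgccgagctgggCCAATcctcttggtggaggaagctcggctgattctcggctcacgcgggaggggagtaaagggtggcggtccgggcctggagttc
SC5D, chr11:121292611-121292770, plus strand: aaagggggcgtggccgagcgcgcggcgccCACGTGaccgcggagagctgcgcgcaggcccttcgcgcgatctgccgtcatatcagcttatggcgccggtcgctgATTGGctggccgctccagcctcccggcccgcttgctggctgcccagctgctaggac
HMGCS1, chr5:43313413-43313572, minus strand: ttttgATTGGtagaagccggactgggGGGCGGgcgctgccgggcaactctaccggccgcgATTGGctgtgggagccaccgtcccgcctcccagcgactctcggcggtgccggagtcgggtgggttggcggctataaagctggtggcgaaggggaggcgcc
MSMO1, chr4:165327509-165327668, plus strand: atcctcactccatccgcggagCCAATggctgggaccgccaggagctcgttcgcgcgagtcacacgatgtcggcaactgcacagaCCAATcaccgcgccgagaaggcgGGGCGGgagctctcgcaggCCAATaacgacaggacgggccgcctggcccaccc
SREBF2, chr22:41832945-41833104, plus strand: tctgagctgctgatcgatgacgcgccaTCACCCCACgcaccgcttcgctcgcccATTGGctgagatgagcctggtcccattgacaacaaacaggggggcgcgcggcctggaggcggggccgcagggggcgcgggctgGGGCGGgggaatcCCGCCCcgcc
ELOVL6, chr4:110198616-110198775, minus strand: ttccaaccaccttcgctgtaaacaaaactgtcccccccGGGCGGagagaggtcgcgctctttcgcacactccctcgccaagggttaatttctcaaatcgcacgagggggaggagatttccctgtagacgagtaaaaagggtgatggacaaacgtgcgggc
ACSL1, chr4:184825969-184826128, minus strand: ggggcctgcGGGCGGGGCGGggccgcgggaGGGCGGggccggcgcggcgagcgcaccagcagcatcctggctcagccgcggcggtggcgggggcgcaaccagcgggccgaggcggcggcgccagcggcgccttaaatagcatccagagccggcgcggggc

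In these stretches NSDHL, which fell, carried 4 NF-Y boxes, 2 of them overlapping. SC5D, which rose, carried 1 NF-Y box and 1 E box. The uncalled genes HMGCS1 and MSMO1 carried 2 and 3 NF-Y boxes and 1 GC box each. In SREBF2 the sterol regulatory element began 133 bases before the start, with 1 NF-Y box downstream of it. ELOVL6 carried 1 GC box and ACSL1 carried 3, 2 of them overlapping.

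In the fatty acid branch the central synthesis genes were not called. FASN, the fatty acid synthase, read 1168, 1127 and 1415 on the gedunin arrays and 1341 and 1079 on the DMSO arrays, so the groups overlapped (0.03 ± 0.13, 95% interval from -0.25 to 0.32). SCD, which makes monounsaturated fatty acids, read 920.5, 1017 and 925 with gedunin against 1006 and 1042 with DMSO (-0.10 ± 0.09, adjusted p = 0.536). The 4 probe sets of SCD all had differences below 0, from -0.21 to -0.10, and none was called.

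ACLY and ACACA supply the branch with acetyl-CoA and malonyl-CoA, and both read lower on every gedunin array without passing the test. ACLY had 919.9, 1003 and 854 with gedunin against 1044 and 1125 with DMSO (-0.23 ± 0.10, adjusted p = 0.165). Its other probe sets had -0.29 (adjusted p = 0.0688) and -0.23 (adjusted p = 0.118), both with groups apart and neither called. ACACA had 1182, 1222 and 1253 against 1371 and 1392 (-0.18 ± 0.09, adjusted p = 0.207). On the dimmer probe set of ACACA the groups overlapped (-0.17, adjusted p = 0.435). ACACB, the mitochondrial form of acetyl-CoA carboxylase, and ACSL4, an acyl-CoA synthetase that prefers arachidonic acid, read below the array median on every array and had differences of -0.04 and 0.07.

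The called genes of this branch lay at its later steps. ACSL1, which activates long-chain fatty acids to their CoA esters, read 704, 719.98 and 631 with gedunin against 451 and 541 with DMSO. All gedunin arrays lay above both controls. ACSL1 averaged 685 ± 47.5 (SD, n = 3) with gedunin and 496 ± 63.4 (SD, n = 2) with DMSO, and rose by 0.47 ± 0.11, or 1.38-fold (adjusted p = 0.0155). Its second probe set was called as well, with 0.38 (adjusted p = 0.020). Without DMSO 1 the call was lost, at 0.34 (adjusted p = 0.166).

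ELOVL6, the elongase of saturated and monounsaturated fatty acids, read 40.6, 36.7 and 35.8 with gedunin against 44.5 and 53.3 with DMSO. The groups did not overlap, but these intensities are close to the array median. ELOVL6 fell by 0.37 ± 0.11, to 0.773 of the DMSO level (adjusted p = 0.0436), and its other probe set had -0.40 (adjusted p = 0.0544). The call did not hold without DMSO 2 (-0.24, adjusted p = 0.324), without gedunin 2 (adjusted p = 0.101), without gedunin 3 (adjusted p = 0.101) or with the replicate number as a block (-0.33, adjusted p = 0.127).

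Among the remaining genes of the branch, ELOVL5, the elongase of polyunsaturated fatty acids, read 1698, 1744 and 1797 with gedunin against 1522 and 1493 with DMSO. Its groups were apart, yet the difference of 0.21 ± 0.09 was not called (adjusted p = 0.138). The desaturases FADS1 and FADS2 had 0.08 ± 0.09 and 0.03 ± 0.09, with overlapping groups.

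No regulator was called. SREBF1 read 538, 548 and 544 with gedunin against 581 and 531 with DMSO, and all gedunin arrays lay between the controls (-0.03 ± 0.09, 95% interval from -0.23 to 0.16). SREBF2 read 109, 127 and 122 against 129 and 121 (-0.07 ± 0.10, interval from -0.29 to 0.15). A dimmer probe set of SREBF2 had the opposite sign and was not called (0.15, interval from -0.07 to 0.38). SCAP, the escort of the SREBP proteins, read 86.3, 107 and 86.6 against 100.4 and 106 (-0.16 ± 0.11, adjusted p = 0.440). The groups overlapped for all 3 genes.

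INSIG1, a quickly responding target of SREBP proteins that also restrains them, read 269, 305 and 321 with gedunin against 298 and 277 with DMSO. The groups overlapped on this probe set (0.05 ± 0.10, interval from -0.18 to 0.28). Its other probe sets had -0.07 and 0.18, neither called. On the latter, every gedunin array lay above both controls (adjusted p = 0.256). INSIG2, which is controlled separately from INSIG1, read 184, 188 and 159 against 165 and 179.9 (0.03 ± 0.10). The plot of single arrays shows the called members beside the regulators.

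**Figure D2:**
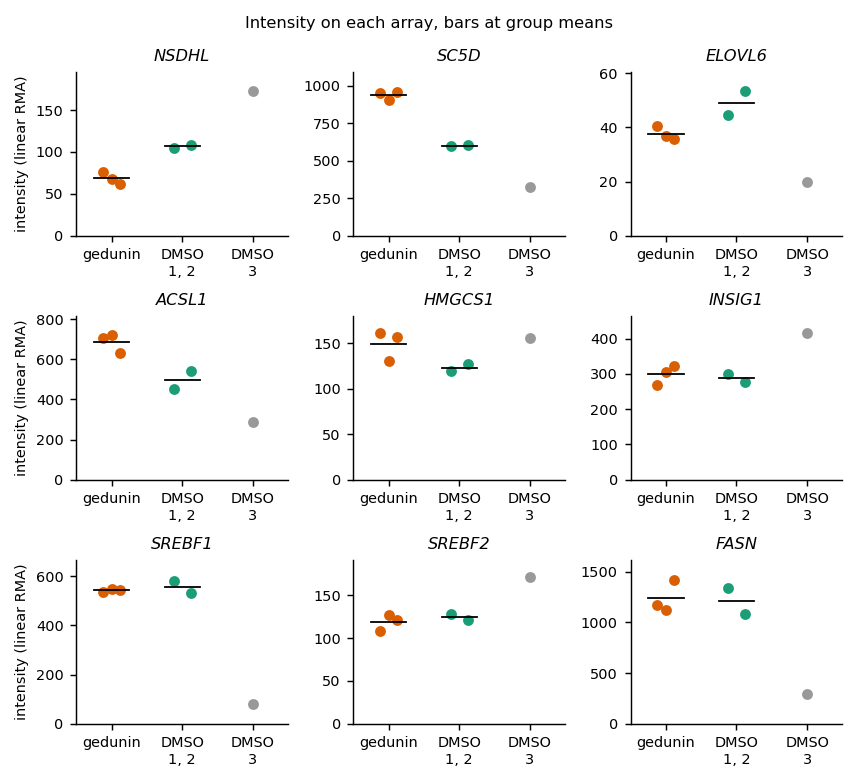
Intensity on each array (linear RMA values, vertical axes from 0) for the 4 called members and for HMGCS1, INSIG1, SREBF1, SREBF2 and FASN, with gedunin left, DMSO 1 and 2 in the middle and DMSO 3 at the right, bars marking group means. Gedunin points lie clear of DMSO 1 and 2 for NSDHL, SC5D, ELOVL6 and ACSL1, and mix with them for INSIG1, SREBF1, SREBF2 and FASN.

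Set side by side, each branch held 1 called gene in either direction. The sterol branch had 2 of 16 genes called (12.5%), and the fatty acid branch 2 of 11 (18.2%), against 17.6% of all genes. Median log2 fold changes were -0.08 for the sterol branch, 0.03 for the fatty acid branch and -0.03 for the regulators. Against the mean of DMSO 1 and 2, the sterol branch had a median of -0.06, -0.10 and -0.12 on the gedunin arrays 1, 2 and 3, and the fatty acid branch -0.04, -0.01 and 0.00. In the sterol branch 11 of 16 differences lay below 0 and in the fatty acid branch 5 of 11, against 6506 of all 12165 genes. The difference between the branches was not tested.

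Of the 63 probe sets naming a member, 5 were called, against 15.3% of all probe sets. Groups of gedunin and DMSO arrays did not overlap for 12 members, 8 of them uncalled, against 46.3% of all genes. Of the 21 members with more than 1 probe set, 10 had probe sets of differing sign.

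Genes around these pathways were taken from neighbouring lists, whose counts stand against 8.24% of all genes called higher and 9.36% called lower. The share called was 30% of the further SREBP pathway genes, 25% of the further isoprenoid and sterol enzymes, 23.1% each of the uptake and glycerolipid lists, 21.1% of the oxidation genes and 5.56% of the other fatty acid synthesis genes, against 17.6% of all genes. In these short lists a single gene moves the share by several percent, and nothing particular to a list is read from it. Of 10 measured genes of the SREBP pathway outside the members, 1 rose and 2 fell. TMEM97, the sigma-2 receptor and a known target of SREBP that limits the cholesterol transporter NPC1, read 1463, 1529 and 1573 with gedunin against 757 and 797 with DMSO. It rose by 0.97 ± 0.09, or 1.96-fold (adjusted p = 5.56e-05), and all 4 of its probe sets were called. NPC1 had -0.08 (adjusted p = 0.655). UBE2G2, a ubiquitin-conjugating enzyme of endoplasmic reticulum degradation, fell by 0.61 ± 0.09 (adjusted p = 0.00132). The other probe set of UBE2G2 had overlapping groups and was not called (-0.40, adjusted p = 0.122). MBTPS1, the protease that makes the first cut in SREBP proteins, fell by 0.33 ± 0.10 on 1 probe set (adjusted p = 0.0432) and had 0.20 on the other (adjusted p = 0.255).

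Among 12 further isoprenoid and sterol enzymes, 1 rose and 2 fell. PDSS1, which makes the isoprenoid tail of coenzyme Q, read 62.9, 66.9 and 65.6 with gedunin against 105 and 106 with DMSO, and fell by 0.70 ± 0.09 (adjusted p = 4.34e-04). FNTB, the beta subunit of protein farnesyltransferase, fell by 0.47 ± 0.10 (adjusted p = 0.0105). Its other probe sets, below the array median, had -0.32 (adjusted p = 0.0523) and -0.05 (adjusted p = 0.787) and were not called. POR, the reductase that feeds electrons to CYP51A1 and SQLE, rose by 0.40 ± 0.10 (adjusted p = 0.020).

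Sterol uptake, export and storage had 1 of 13 genes higher and 2 lower. MYLIP, a ubiquitin ligase that removes lipoprotein receptors and is a known target of the sterol-sensing LXR receptors, read 34.5, 35.1 and 34.8 with gedunin against 55.7 and 75.1 with DMSO, and fell by 0.89 ± 0.12 (adjusted p = 8.68e-04). The gedunin values were near the array median. VLDLR, a lipoprotein receptor, read 33.2, 31.6 and 49.5 with gedunin against 25.3 and 23.3 with DMSO. It rose by 0.62 ± 0.17 (adjusted p = 0.0365). Its DMSO values lay below the array median, and gedunin 3 stood well above gedunin 1 and 2. The lysosomal cholesterol ester hydrolase LIPA fell by 0.39 ± 0.09 (adjusted p = 0.0195). The LXR targets ABCA1 (0.05) and ABCG1 (0.18) were not called.

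Of 18 other fatty acid synthesis genes, 1 rose and 0 fell. That gene was ME1, the malic enzyme that supplies NADPH for lipid synthesis and is also known as a target of NRF2. ME1 read 1726, 1742 and 1764 with gedunin against 572 and 636 with DMSO. It rose by 1.53 ± 0.09, or 2.89-fold (adjusted p = 2.72e-06), more than any member. By the probe set taken for each gene, this was the only change of at least 2-fold among the lipid genes listed here. A dimmer probe set of TMEM97 had 1.04, or 2.06-fold. The second probe set of ME1 had 1.49 (adjusted p = 3.13e-06), and the remaining one of ME1, at 21.7 to 23.2 with gedunin, read below the array median.

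Among 13 glycerolipid and lipid droplet genes, 2 rose and 1 fell. LPIN1, a phosphatidate phosphatase and coactivator known to respond to SREBP, read 332, 381 and 356 with gedunin against 221 and 217 with DMSO. It rose by 0.70 ± 0.09, or 1.62-fold (adjusted p = 7.40e-04), and its 3 probe sets were all called. The choline kinase CHKA rose by 0.36 ± 0.11 (adjusted p = 0.0496), and CIDEB, a lipid droplet protein, fell by 0.62 ± 0.14 (adjusted p = 0.0153). The other probe set of CHKA had the opposite sign and was not called (-0.06, adjusted p = 0.732).

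Fatty acid oxidation, the opposing pathway, had 0 of 19 genes higher and 4 lower, a share of 21.1% lower against 9.36% of all genes. The share lower was 20% of the further SREBP pathway genes, 16.7% of the isoprenoid list and 15.4% of the uptake list. It was 7.69% of the glycerolipid list and 0% of the other fatty acid synthesis genes. CPT1A, the carnitine acyltransferase that admits fatty acids to mitochondria, read 741, 775 and 717 with gedunin against 1111 and 1016 with DMSO, and fell by 0.51 ± 0.09 (adjusted p = 0.00374), with 3 of its 4 probe sets called. CPT2, its partner on the inner membrane, fell by 0.56 ± 0.10 (adjusted p = 0.00332), with 1 of its 2 probe sets called. The thiolases ACAA1, of peroxisomes, and ACAA2, of mitochondria, fell by 0.46 ± 0.09 (adjusted p = 0.00811) and by 0.35 ± 0.09 (adjusted p = 0.0310). The other probe set of ACAA2, below the array median, had the opposite sign and was not called (0.13, adjusted p = 0.485), and that of ACAA1 had -0.26 (adjusted p = 0.110). The other 15 genes were not called, and the median of the list was -0.09.

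**Figure D3:**
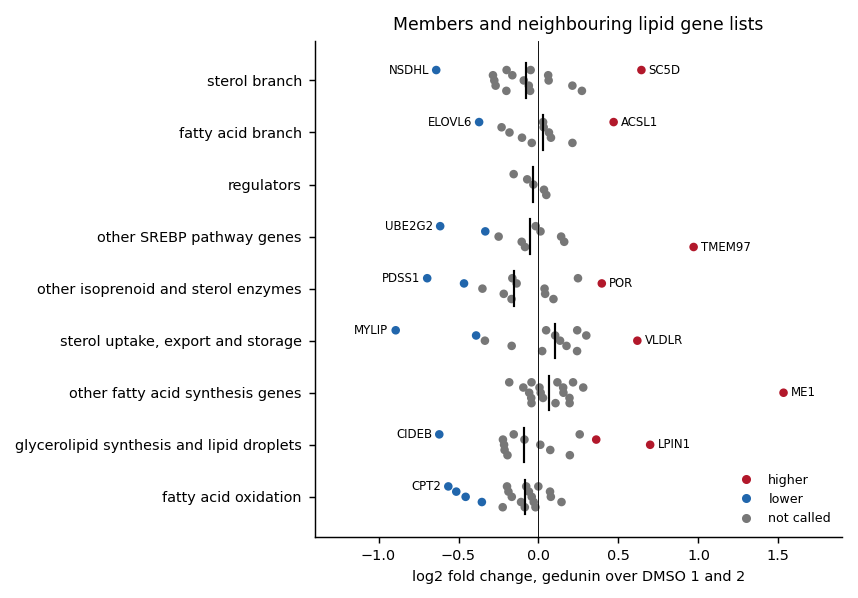
Log2 fold change, gedunin (3 arrays) over DMSO 1 and 2 (2 arrays), of every measured gene of the member branches and the neighbouring lipid lists, each point a gene, colour showing the call at an adjusted p of 0.05 and vertical bars the list medians. Members lie between -0.64 and 0.64, while ME1 (1.53), TMEM97 (0.97) and LPIN1 (0.70) lie farther right and MYLIP (-0.89) and PDSS1 (-0.70) farther left.

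With DMSO 3 included as a control, 0 of the 32 members were called, against 1.67% of all genes, and 3 members passed an unadjusted p of 0.05. SC5D then had 0.94 ± 0.26 (adjusted p = 0.226), NSDHL -0.87 ± 0.22 (adjusted p = 0.187), ACSL1 0.73 ± 0.25 (adjusted p = 0.331) and ELOVL6 0.06 ± 0.38 (adjusted p = 0.958), the last with its sign turned. Of the neighbouring genes named above, TMEM97 (0.89) and UBE2G2 (-0.66) passed with all 6 arrays, MYLIP (-0.59), ME1 (2.31) and LPIN1 (0.99) did not, and CPT1A had the opposite sign (0.49).

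On DMSO 3 itself the branches read in opposite directions. In the sterol branch 13 of 16 genes read higher than the mean of DMSO 1 and 2 and the median log2 difference was 0.65. In the fatty acid branch 9 of 11 read lower, with a median of -0.53. Of all 12165 genes, 6165 read higher and 6000 lower, with a median of 0.01. At least 2-fold differences were higher for 3 and lower for 1 of the sterol genes, and higher for 0 and lower for 4 of the fatty acid genes, against 8.94% of all genes higher and 13.0% lower. SQLE read 510 there, FASN 297 and SREBF1 81.0, while TM7SF2 read 121 against 1704 and 1699 on DMSO 1 and 2. Since this array also lacked the luminal markers, these values describe the RNA on it and not an effect of DMSO.

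**Figure D4:**
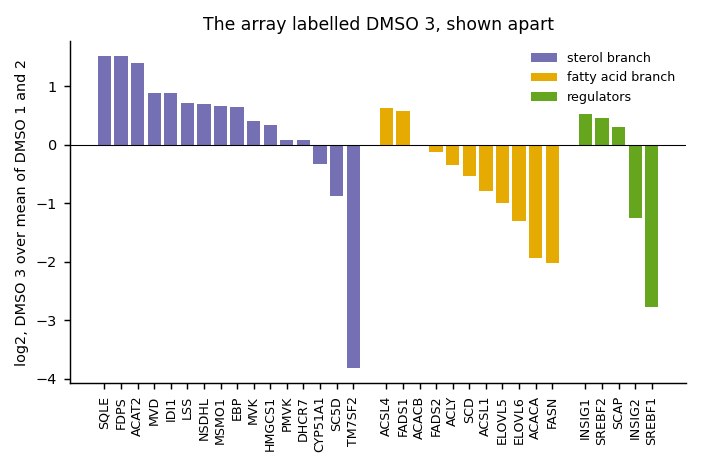
Log2 difference of the array labelled DMSO 3 from the mean of DMSO 1 and 2 for each measured member, bars from 0, coloured by branch and sorted within it. SQLE, FDPS and ACAT2 stand highest, and TM7SF2 (-3.81), SREBF1 (-2.78), FASN (-2.02) and ACACA (-1.93) lowest.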

How the data were processed

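The deposited table holds 1 linear intensity per array for 22215 probe sets, made by the authors with RMA, per the submitters' processing notes. The version, and which arrays were processed together, are not given in the sources used here. Probe sets were named from the platform annotation of 2016: 19724 named 1 gene, 568 several and 1923 were not listed. Log2 intensities were fitted with limma 3.58.1 (R 4.3.3; lmFit, eBayes, Benjamini-Hochberg over all probe sets, threshold 0.05) for 3 gedunin against 2 DMSO arrays, with no filter. A gene took its probe set with the highest mean over these 5 arrays. Errors are moderated standard errors unless marked SD, and precision is limited by having so few arrays. The members, the neighbouring lists and the choice of arrays were made with earlier results of these data known. Text names all members, the called genes of each neighbouring list (up to 4), markers and a few uncalled genes picked after their values were seen (NPC1, ABCA1, ABCG1). Same-numbered arrays showed no shared deviation (r = -0.03 and 0.04 across probe sets), so numbers were not treated as pairs. The fit was run on simulated data with added changes, as a check of the code. Recovery was required only at changes larger than that of any member. Alternatives are listed in the closing section.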

Additional observations from a re-analysis of the deposited data

Results flagged for a closer look

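On the array labelled DMSO 3, which the comparison leaves out, 3 of 32 members read at least 2-fold above the mean of DMSO 1 and 2, a share close to the 8.94% of all genes that did so. A further 7 members read at least 2-fold below it, against 13.0% of all genes. The ratio was 2.85 for SQLE (510 against 183 and 175), 2.85 for FDPS (1048 against 399 and 339) and 2.65 for ACAT2 (460.1 against 179 and 169). That array also carried leukocyte markers and lacked luminal markers, with summed intensities of 27917 and 207, and the part of this in the ratios was not tested.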

How the results depend on the processing

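Leaving out 1 array at a time gave 1153 to 1939 genes called, 599 to 937 higher and 528 to 1002 lower, against 2142, 1003 and 1139, the counts being lowest without either DMSO array (1153 without DMSO 1, 1183 without DMSO 2). It gave 2 to 3 sterol branch and 1 to 2 fatty acid branch members. With all 6 arrays 203 genes were called (159 higher, 44 lower) and 0 members of either branch. Centring on GAPDH and ACTB gave 3791 genes (652 higher, 3139 lower) and 7 sterol branch members, and moved the median of all genes to -0.19. In the main fit ACTB itself was called higher with gedunin (0.32 ± 0.09, adjusted p = 0.0347), while GAPDH had 0.02 and was not called. Centring on their mean therefore lowers the log2 fold change of every gene by construction. Leaving out _x_at and _s_at probe sets gave 1274 genes (573 higher, 701 lower) from fewer tested, and 0 sterol branch members. A threshold of 0.01 gave 1208 genes (651 higher, 557 lower) and 0 fatty acid branch members. The filter on dim probe sets and the added 16 each gave 4 sterol branch members. The replicate block, quantile normalization and median centring each gave 1 fatty acid branch member. The block gave 1853 genes called and is no pairing from the labels. The count of regulators called was 0 under all of these alternatives.

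Signs turned with all 6 arrays for MVD (-0.083), IDI1 (-0.23), TM7SF2 (1.00), ACACA (0.46), SCD (0.074), ELOVL6 (0.064), FADS1 (-0.12), ACSL4 (-0.14), SREBF1 (0.89), INSIG1 (-0.13) and CPT1A (0.49). They turned with GAPDH and ACTB for IDI1 (-0.11), DHCR7 (-0.11), FASN (-0.14), FADS1 (-0.092), FADS2 (-0.14), ACSL4 (-0.10), INSIG1 (-0.12) and INSIG2 (-0.14). The mean of a gene's probe sets turned SQLE (0.0020), CYP51A1 (0.024), DHCR7 (-0.032) and SREBF2 (0.041). Without _x_at and _s_at probe sets, CYP51A1 (0.33), SC5D (-0.13), ACAA2 (0.13) and MBTPS1 (0.20) turned, the value then coming from another probe set. The replicate block turned FASN (-0.068) and INSIG1 (-0.0059), and quantile normalization FASN (-0.010). Leaving out 1 array at a time ranged over 0 for MVK (-0.19 to 0.0020), DHCR7 (-0.018 to 0.14), ACACB (-0.11 to 0.022), FASN (-0.12 to 0.19), SREBF1 (-0.10 to 0.033), INSIG1 (-0.0059 to 0.12) and INSIG2 (-0.029 to 0.11). Except where an alternative's own construction shows it, the cause was not tested.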

Other observations

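Some probe sets differed more among the gedunin arrays than between treatments. The dimmer HMGCS1 probe set read 80.3, 45.4 and 27.6 on gedunin 1, 2 and 3, a ratio of highest to lowest of 2.91. Of all 22215 probe sets 2 had a ratio that large, the other being one of SSR3, a subunit of the translocon-associated complex, with 263, 218 and 60.9 (ratio 4.32). On the brighter CYP51A1 probe set, gedunin 3 read 352 against 546 and 524 on gedunin 1 and 2, while on the dimmer one it read 132 against 103 and 81.6. These probe sets were picked after their values were seen, and no test was made.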
